A study of Mus musculus with 6 samples.

Results

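Collagen chains are the subunits of the most abundant proteins of the extracellular matrix, and 39 of the 22248 genes listed in the RNAseq table of bone-marrow-derived macrophages (BMDMs) carry a collagen chain symbol (Col, a type number, the letter a and a chain number). Every gene with such a symbol was taken, whatever its values. BMDMs are obtained by culturing marrow cells of mouse leg bones with the growth factor M-CSF, and they were left unstimulated here. There were 3 control libraries from Lyz2cre mice and 3 libraries from Lyz2cre:CITED2Fl/Fl mice (called CITED2-deficient below), all on the C57BL/6 strain. Both genotypes carry 1 allele of Cre recombinase made from the *Lyz2* locus, the lysozyme gene of myeloid cells. Only the second genotype also carries floxed *Cited2* on both chromosomes, so a non-myeloid cell in the culture would keep *Cited2*. The labels give an age of 10 weeks, and the methods of the study give a younger age for the bone marrow donors. Neither source says how many mice stand behind a library, so p-values measure only the spread between these libraries.

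Collagen genes encode chains that wind around each other into long helices. Before they leave the cell, the chains are hydroxylated, glycosylated and folded with dedicated enzymes and chaperones. Fibrillar collagens are then trimmed and cross-linked outside the cell into the fibers of bone, tendon and skin. Network collagens form basement membranes, and beaded, fibril-associated, transmembrane and other collagens link these structures to cells. Fibroblasts and osteoblasts are the main producers of fibrillar collagen, while macrophages are better known for taking up and degrading it.

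The main result was a rise of most measurable collagen chains in CITED2-deficient BMDMs. Of the 39 chains, 18 had a mean of at least 1 FPKM (fragments scaled by transcript length and library depth, as deposited) over the 6 libraries and were tested on log2(FPKM + 1) with limma. Past an adjusted p of 0.05 (Benjamini-Hochberg over all 11687 tested genes), 14 chains were higher, 2 were lower and 2 did not pass. Of all tested genes, 16.7% were higher and 34.6% were lower by the same rule. The median log2 fold change of the 18 chains was 1.34, against -0.10 for all tested genes. The groups did not overlap for the same counts, 14 chains higher and 2 lower, against 19.0% and 40.9% of all tested genes. When a change of at least 2 fold on the log2(FPKM + 1) scale was also required, 12 chains were higher and none was lower, against 3.72% and 1.54% of tested genes. Median-ratio scaling, which brought the median of all genes to -0.0069, left 14 chains higher and 2 lower, against 23.1% and 21.3% of tested genes. The filter admitted only 1 chain, *Col2a1*, whose control mean was below 1 FPKM, and *Col20a1* was the only tested chain whose CITED2-deficient mean was below 1.

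All values are given for control replicates 1 to 3 and then for CITED2-deficient replicates 1 to 3. The genotype was checked first with *Cited2* itself, which had 71.7, 79.3 and 75.5 FPKM in the control libraries and 9.27, 7.22 and 7.53 FPKM in the CITED2-deficient libraries. Each library thus matched its label. The depth, recovered from the FPKM steps, was 17289286 to 18952077 fragments in control and 22583995 to 26100410 fragments in CITED2-deficient libraries, so low genes were measured on average 1.34 times more deeply in the second group. With 3 against 3 libraries an exact permutation p of a single value cannot fall below 0.1, and the tests below are therefore those of limma.

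The promoters of some chains that were higher past the threshold are shown first. Most tested chains were higher, so a shared direction of neighboring chains is not particular to neighbors. *Col4a1* and *Col4a2* lie head to head on chromosome 8, their gene bodies overlap by 22 bases in mm10, and their promoter windows below share 78 bases. *Col3a1* and *Col5a2* are 24.6 kb apart on chromosome 1, and *Col6a1* and *Col6a2* are 85.2 kb apart on chromosome 10. The windows are RefSeq sequences of the GRCm38.p6 assembly, running 5′ to 3′ from 250 bases before to 50 bases after the annotated start. Capitals mark CCAAT boxes (CCAAT), TATA boxes (TATAAA) and GC boxes (GGGCGG), searched on both strands, and no match overlapped another.
Col1a2, chr6:4505368-4505667, plus strand: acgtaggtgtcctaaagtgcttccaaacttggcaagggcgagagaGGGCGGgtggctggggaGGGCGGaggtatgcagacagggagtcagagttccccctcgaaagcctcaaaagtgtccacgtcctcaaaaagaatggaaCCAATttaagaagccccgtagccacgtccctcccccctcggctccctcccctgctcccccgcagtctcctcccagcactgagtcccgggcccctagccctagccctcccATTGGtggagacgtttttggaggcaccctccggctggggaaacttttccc
Col3a1, chr1:45311288-45311587, plus strand: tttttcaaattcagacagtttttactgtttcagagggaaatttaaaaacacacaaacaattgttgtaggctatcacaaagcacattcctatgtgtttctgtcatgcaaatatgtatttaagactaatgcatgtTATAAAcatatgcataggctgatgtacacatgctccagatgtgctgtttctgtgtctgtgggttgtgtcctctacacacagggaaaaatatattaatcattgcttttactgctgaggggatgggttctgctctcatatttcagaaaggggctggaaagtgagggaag
Col4a1, chr8:11312777-11313076, minus strand: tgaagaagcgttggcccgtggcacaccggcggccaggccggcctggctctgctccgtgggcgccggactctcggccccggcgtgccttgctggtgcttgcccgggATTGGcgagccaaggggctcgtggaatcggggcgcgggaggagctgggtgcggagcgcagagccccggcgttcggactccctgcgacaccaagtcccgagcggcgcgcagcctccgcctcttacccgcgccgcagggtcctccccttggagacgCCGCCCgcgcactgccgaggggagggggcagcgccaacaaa
Col4a2, chr8:11312555-11312854, plus strand: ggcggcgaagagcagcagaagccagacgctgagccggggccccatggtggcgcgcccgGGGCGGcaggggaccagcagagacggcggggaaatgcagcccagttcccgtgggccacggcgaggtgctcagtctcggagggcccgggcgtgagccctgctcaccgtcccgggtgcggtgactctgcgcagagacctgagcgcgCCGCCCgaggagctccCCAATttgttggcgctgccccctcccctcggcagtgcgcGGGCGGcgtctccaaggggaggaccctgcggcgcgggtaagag

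The *Col1a2* window held 2 CCAAT boxes and 2 GC boxes, and the *Col3a1* window held 1 TATA box. The *Col4a1* window held 1 CCAAT box and 1 GC box, and the *Col4a2* window held 1 and 3. The GC box of *Col4a1* is the last GC box of *Col4a2* read on the other strand, and it is counted for both chains. The window of *Col4a5*, a chain that was lower, is not printed and held 1 CCAAT box and 1 GC box. Promoter windows were at hand for 31 of the 39 chains. A GC box was found for 20 of the 31 chains, a CCAAT box for 10 and a TATA box for 4. Of all 32851 promoter windows in the table, 35.7% held a GC box, 37.4% a CCAAT box and 13.6% a TATA box. Of the 10 chains with a window that were higher in CITED2-deficient BMDMs, 7 held a GC box and 4 a CCAAT box. These are matches of letters and not known binding sites.

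On the log2(FPKM + 1) scale, the largest changes among the tested chains were those of the fibrillar chains *Col1a1*, *Col1a2*, *Col5a2* and *Col3a1*. The order depends on that scale, which understates changes of low genes. In limma-voom on fragment numbers recovered from the FPKM, *Col5a1* (2.20), *Col12a1* (2.20) and *Col8a1* (2.11) were above *Col3a1* (2.08). Fibrillar collagens had 11 listed chains, of which 7 were tested, 6 were higher past the threshold and 1 did not pass. Of all tested genes, 16.7% were higher. *Col1a1* and *Col1a2* encode the chains of type I collagen, the main fiber of bone, tendon and skin. *Col1a1* (ENSMUSG00000001506, chromosome 11, 94936224 to 94953042 in mm10) had 15.5, 14.2 and 16.6 FPKM in control and 305, 62.0 and 62.6 FPKM in CITED2-deficient libraries. Every CITED2-deficient library was above every control library, and replicate 1 stood far above replicates 2 and 3. The mean rose from 15.4 ± 1.20 to 143 ± 140 FPKM (SD, n = 3 each), with a log2 fold change of 2.71 (standard error, SE, 0.51, limma adjusted p = 0.00202). Without CITED2-deficient replicate 1 the log2 fold change was 1.95 (adjusted p = 1.13e-07 from limma), and replicates 2 and 3 were 4.02 and 4.06 times the control mean, against 19.7 times for replicate 1. *Col1a2* (ENSMUSG00000029661, chromosome 6, 4504814 to 4541544) had 17.4, 15.0 and 17.7 FPKM in control and 175, 66.3 and 63.6 FPKM in CITED2-deficient libraries. It showed the same order, with no overlap between the groups. Its log2 fold change was 2.37 (SE 0.32, limma adjusted p = 0.000282) with all libraries and 1.90 without CITED2-deficient replicate 1. That library was 10.5 times the control mean, and replicates 2 and 3 were 3.97 and 3.81 times the control mean.

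*Col3a1* encodes the chain of type III collagen, which forms fine fibers together with type I. It had 9.81, 6.37 and 8.44 FPKM in control and 45.0, 29.3 and 30.5 FPKM in CITED2-deficient libraries, a log2 fold change of 1.96 (SE 0.17, limma adjusted p = 1.94e-05). *Col5a1* and *Col5a2* encode chains of type V collagen, which starts and limits the growth of fibrils. *Col5a2* had 5.07, 4.06 and 4.35 FPKM in control and 33.5, 18.9 and 21.6 FPKM in CITED2-deficient libraries, a log2 fold change of 2.19 (SE 0.18, limma adjusted p = 9.92e-06). *Col5a1* had 1.70, 1.55 and 1.56 FPKM in control and 13.7, 5.26 and 5.56 FPKM in CITED2-deficient libraries. The groups of all 3 genes were apart, and CITED2-deficient replicate 1 was again the highest library for each. *Col5a1* had a log2 fold change of 1.70 (SE 0.28, limma adjusted p = 0.000936), and of 1.30 without that library, which was 8.51 times the control mean against 3.28 and 3.46 times for replicates 2 and 3. *Col2a1*, the chain of cartilage type II collagen, had means of 0.900 ± 0.424 and 1.96 ± 0.489 FPKM and passed narrowly (log2 fold change 0.65, adjusted p = 0.0190 from limma). This call was lost without CITED2-deficient replicate 1 (adjusted p = 0.0682), without control replicate 1 (adjusted p = 0.0524) or 2 (adjusted p = 0.0604), and when no filter was used (adjusted p = 0.0542 from limma). *Col11a2* encodes a type XI chain, which is found inside cartilage fibrils. Its values of 0.818, 1.17 and 1.08 FPKM in control and 2.06, 1.03 and 0.901 FPKM in CITED2-deficient libraries overlapped, and it did not pass (0.18, adjusted p = 0.485 from limma).

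**Figure D1:**
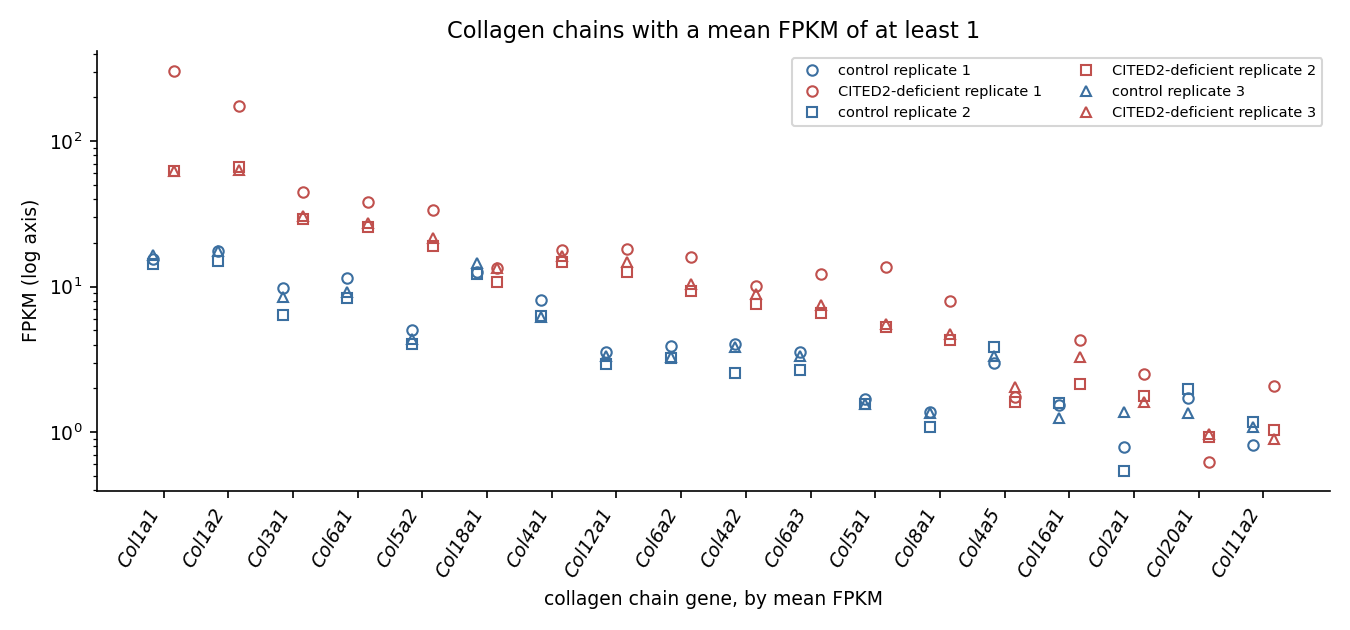
FPKM (log axis) of the 18 tested collagen chains in each of the 3 control libraries (blue) and 3 CITED2-deficient libraries (red), with 1 symbol shape per replicate. CITED2-deficient libraries lie above all controls for 14 chains and below them for *Col4a5* and *Col20a1*, and CITED2-deficient replicate 1 (red circles) is the highest of its group for 16 of the 18 chains.

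The basement membrane collagens did not move in 1 direction. Type IV collagen has 6 chains, made from head-to-head gene pairs, and 3 of them were tested. *Col4a1* had 8.11, 6.29 and 6.14 FPKM in control and 17.9, 14.8 and 16.3 FPKM in CITED2-deficient libraries, a log2 fold change of 1.15 (SE 0.11, limma adjusted p = 2.26e-05). *Col4a2* had 4.06, 2.56 and 3.83 FPKM in control and 10.2, 7.64 and 8.89 FPKM in CITED2-deficient libraries, with a log2 fold change of 1.15 (SE 0.15, limma adjusted p = 0.000186). These are the chains of the common form of type IV collagen, and both rose to a similar extent in each CITED2-deficient library. *Col4a5* (ENSMUSG00000031274, chromosome X, 141475385 to 141689234) encodes a chain of a form found in the basement membranes of the kidney and other tissues. It had 2.96, 3.86 and 3.32 FPKM in control and 1.75, 1.62 and 2.05 FPKM in CITED2-deficient libraries. Every CITED2-deficient library was below every control library, and the mean fell from 3.38 ± 0.454 to 1.81 ± 0.219 FPKM (log2 fold change -0.64, SE 0.12, limma adjusted p = 0.00194). It passed in every alternative in which it was tested except where a 2-fold change was also required, with log2 fold changes from -0.89 to -0.56. The partner gene *Col4a6*, whose annotated start is 1.31 kb away on the other strand, was below the filter, with 17, 13 and 4 fragments in control and 7, 2 and 5 fragments in CITED2-deficient libraries. The paired genes *Col4a3* and *Col4a4* were also below the filter, with at most 4 and 19 fragments in a library.

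All 3 tested beaded filament chains and the only tested short-chain collagen were higher past the threshold, against 16.7% of all tested genes. Type VI collagen, made of the *Col6a1*, *Col6a2* and *Col6a3* chains, forms beaded filaments around cells, and macrophages are among the cells known to make it. *Col6a1* was the most abundant of its chains, with 11.4, 8.40 and 9.20 FPKM in control and 38.2, 25.8 and 27.5 FPKM in CITED2-deficient libraries. *Col6a2* had 3.92, 3.25 and 3.29 FPKM in control and 16.0, 9.39 and 10.4 FPKM in CITED2-deficient libraries. *Col6a3* had 3.56, 2.66 and 3.33 FPKM in control and 12.1, 6.56 and 7.50 FPKM in CITED2-deficient libraries. No chain of this trio overlapped between the groups, and the log2 fold changes were 1.55 (adjusted p = 2.80e-05 from limma), 1.49 (adjusted p = 8.12e-05) and 1.18 (adjusted p = 0.000775). The longer alternative chains *Col6a4*, *Col6a5* and *Col6a6* were below the filter. *Col8a1*, a short-chain network collagen of vessel walls, rose from 1.27 ± 0.163 to 5.65 ± 1.97 FPKM (log2 fold change 1.52, adjusted p = 0.000145 from limma). *Col18a1*, a basement membrane collagen that yields endostatin, lies 326 kb from *Col6a1* on chromosome 10. It had 12.6, 12.2 and 14.5 FPKM in control and 13.4, 10.8 and 13.4 FPKM in CITED2-deficient libraries. The groups overlapped, and the log2 fold change was -0.06 (SE 0.10, limma adjusted p = 0.611). It did not pass in any alternative, and its direction depended on the scaling, with 0.034 after median-ratio scaling.

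The fibril-associated collagens were divided. *Col12a1* encodes the chain of type XII collagen, which decorates type I fibers in tissue under tension. It had 3.54, 2.92 and 3.32 FPKM in control and 18.1, 12.6 and 14.7 FPKM in CITED2-deficient libraries. This was the rise with the smallest adjusted p among the chains (log2 fold change 1.91, SE 0.12, limma adjusted p = 2.13e-06). *Col16a1*, another fibril-associated chain, rose from 1.45 ± 0.186 to 3.25 ± 1.07 FPKM (log2 fold change 0.76, adjusted p = 0.00713 from limma). *Col20a1* (ENSMUSG00000016356, chromosome 2, 180986535 to 181018363) went the other way, with 1.70, 1.96 and 1.35 FPKM in control and 0.627, 0.920 and 0.968 FPKM in CITED2-deficient libraries. Its CITED2-deficient values were all below the controls, and the log2 fold change was -0.54 (SE 0.15, limma adjusted p = 0.0148). The call did not hold without control replicate 2 (-0.46, adjusted p = 0.0518 from limma). A gene annotated on the same strand overlaps *Col20a1* by 741 bases and had a mean of 2.92 FPKM, so fragments could have been divided between them.

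**Figure D2:**
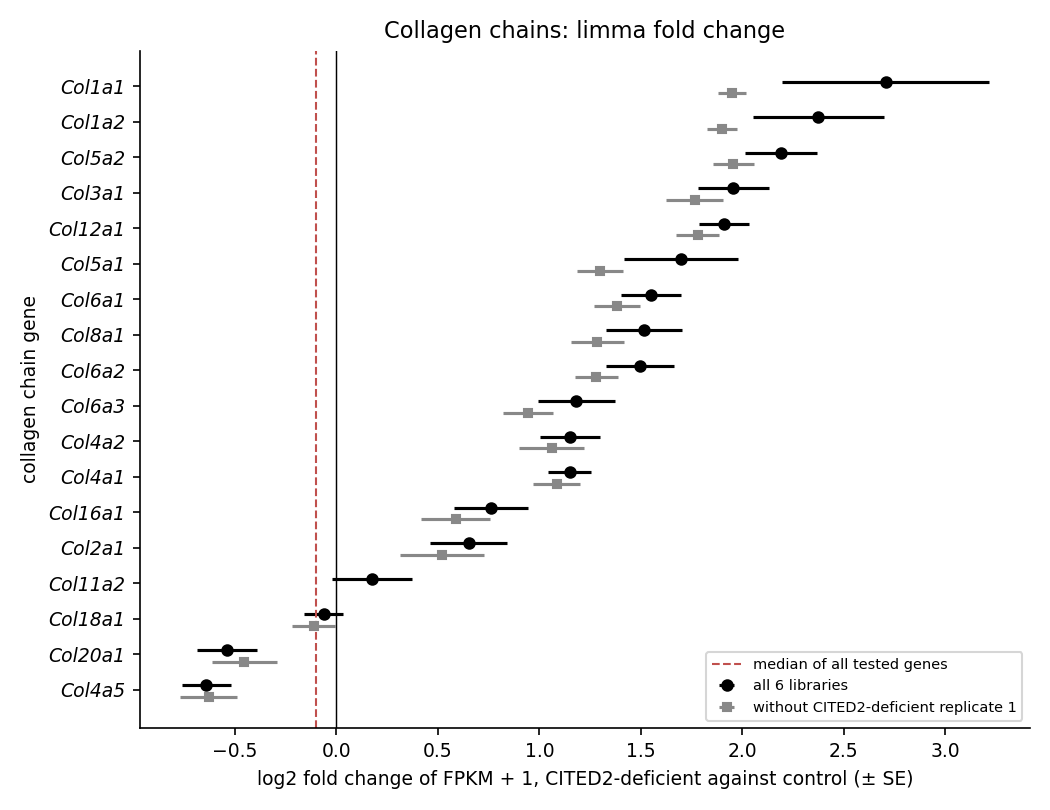
Log2 fold change of FPKM + 1 in CITED2-deficient against control BMDMs for the 18 tested chains, with standard errors, from limma with all 6 libraries (black) and without CITED2-deficient replicate 1 (gray); the dashed line marks the median of all tested genes at -0.10. Leaving out that library moved *Col1a1* from 2.71 to 1.95 and left *Col4a5* at -0.63; *Col11a2* then fell below the filter and has no gray point.

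The other 21 chains were below the filter, with a highest mean of 0.674 FPKM. *Col22a1*, *Col13a1*, *Col28a1* and *Col8a2* were listed at 0 in all control libraries, where a count of 0 in a library leaves room for an expected count of up to about 3 fragments. Of these 21 chains, 4 had groups that did not overlap, all higher in CITED2-deficient BMDMs (*Col9a3*, *Col15a1*, *Col23a1* and *Col11a1*), against 9.98% of all genes below the filter, and none was lower, against 8.00%. Over all 39 chains, 18 were higher and 2 lower without overlap, against 14.7% and 25.3% of all listed genes. *Col9a3*, a chain of cartilage type IX collagen, gave 12, 9 and 13 fragments in control and 42, 32 and 38 fragments in CITED2-deficient libraries. It alone of the 21 passed in limma without a filter (adjusted p = 0.00441), where 9.90% of all genes were higher. *Col11a1*, the partner of *Col11a2*, gave 5, 4 and 0 fragments in control libraries and 136, 13 and 18 in CITED2-deficient libraries, so most of its fragments came from replicate 1. *Col15a1*, a basement membrane collagen of muscle and vessels, gave 11, 7 and 10 against 91, 26 and 38 fragments. Limma-voom on the recovered fragments called *Col9a3*, *Col11a1* and *Col15a1* higher in addition to the 14 chains above, and also called *Col4a5* and *Col20a1* lower. In that test 14.0% of genes were higher and 25.0% lower. *Col23a1* gave 27 to 31 fragments in control and 41 to 61 in CITED2-deficient libraries, and the other chains below the filter had at most 45 fragments in any library.

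The 3 CITED2-deficient libraries were then read separately. All 14 chains that were higher past the threshold were above every control in each of the 3 libraries. Replicate 1 was at least 2 times the control mean for 14 of the 14 chains, replicate 2 for 12 and replicate 3 for 13. The median ratio to the control mean was 5.03 in replicate 1, 2.98 in replicate 2 and 3.22 in replicate 3. Ratios of replicate 2 to replicate 3 ran from 0.650 (*Col16a1*) to 1.09 (*Col2a1*), and replicate 2 was the lowest of the 3 for 12 of the 14 chains. Replicate 1 was the highest of the 3 for all 14 chains, and for 37.6% of all tested genes. It was at least 1.5 times the mean of replicates 2 and 3 for 10 of the 18 tested chains, against 2.64% of all tested genes. Its excess was 4.89 times for *Col1a1*, which only 12 tested genes reached (*Col1a1* included), 2.70 times for *Col1a2* and 2.52 times for *Col5a1*. It was 1.15 times for *Col4a1*, 1.23 times for *Col4a2* and 1.33 times for *Col12a1*. Without replicate 1, 13 chains remained higher past the threshold, *Col2a1* being the call that was lost, and 15.0% of all genes tested were then higher.

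**Figure D3:**
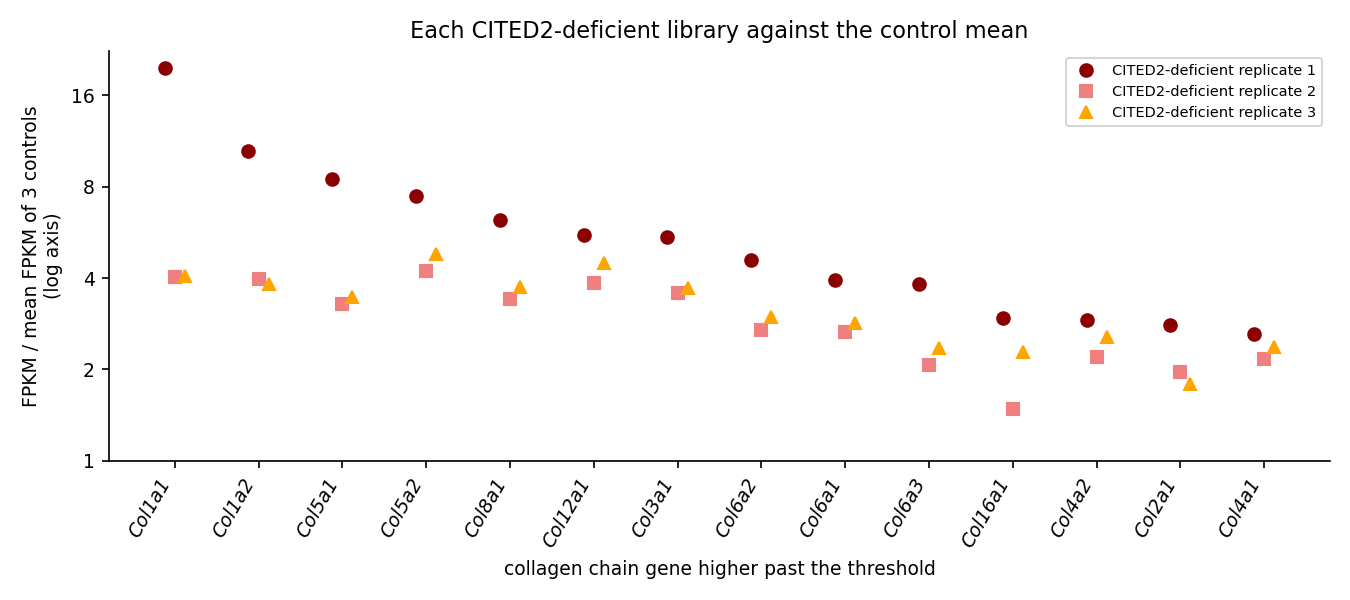
FPKM of each CITED2-deficient library divided by the mean of the 3 controls (log axis) for the 14 chains that were higher past the threshold. Replicates 2 and 3 lie between 1.48 and 4.82 times the control mean, and replicate 1 reaches 19.7 times for *Col1a1*.

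Summed over the 39 chains, the level was 109, 92.3 and 105 FPKM in control and 725, 285 and 300 FPKM in CITED2-deficient libraries. Without the type I chains the sums were 76.2, 63.1 and 70.6 FPKM in control and 245, 157 and 174 FPKM in CITED2-deficient libraries. Both sums separated the groups in every library. Collagen fragments were a small part of each library, 0.0259% to 0.0302% in control and 0.170%, 0.0736% and 0.0787% in CITED2-deficient replicates 1 to 3. Type I chains gave 22.4%, 23.0% and 24.1% of the collagen fragments in control libraries and 55.5%, 35.6% and 32.6% in CITED2-deficient libraries. The make-up of the collagen pool was therefore not the same in the 2 groups, nor in replicate 1 and the other CITED2-deficient libraries.

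Partner chains that are built into the same molecule can be compared only per length. The FPKM divide by the mean length of all annotated transcripts of a gene, short partial ones included (1780 bases for *Col1a1*), so fragments per kilobase of the longest coding transcript (5930 bases for *Col1a1*, 5348 for *Col1a2*) were used for these ratios. The ratio of *Col1a1* to *Col1a2* was 0.623, 0.665 and 0.659 in control and 1.22, 0.656 and 0.690 in CITED2-deficient libraries. CITED2-deficient replicate 1 alone stood apart. Type I collagen molecules as a rule hold more α1 than α2 chains, whose genes these are. With FPKM as deposited the ratio was 0.888 to 0.947 in control and 1.74, 0.935 and 0.984 in CITED2-deficient libraries, the same order. The ratio of *Col5a1* to *Col5a2* was 0.420 to 0.479 in control and 0.510, 0.348 and 0.322 in CITED2-deficient libraries. The ratio of *Col4a1* to *Col4a2* was 1.55 ± 0.331 in control against 1.42 ± 0.0702 with CITED2 deficiency (SD, n = 3 each). The ratio of *Col6a1* to *Col6a2* was 1.75 ± 0.105 and 1.64 ± 0.117, and the ratio of *Col6a3* to *Col6a1* was 0.251 ± 0.0215 and 0.215 ± 0.0249. The type IV and type VI ratios overlapped between the groups, and they differed by less than 2 SD of the control libraries.

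Genes that modify, fold, process, bind or break down collagen were examined next. Of 54 genes in these 7 lists, 52 were listed and 39 were tested, of which 28 were higher, 5 were lower and 6 did not pass. Their median log2 fold change was 0.70. As with the chains, both counts stand against 16.7% and 34.6% of all tested genes. After each library was scaled by its median ratio to the mean profile, only *Mrc1* and *Plod1* were still called lower. Without CITED2-deficient replicate 1, 38 genes were tested, of which 26 were higher and 4 lower, against 15.0% and 31.7% of all tested genes. The filter used the mean of all 6 libraries. Genes such as *P3h2* and *Loxl2*, with control means of 0.425 and 0.723 FPKM, passed it through their CITED2-deficient values. Limma without a filter called 30 of the 52 listed genes higher and 3 lower, against 9.90% and 16.3% of all genes.

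The enzymes that act inside the cell were divided. Prolyl hydroxylases stabilize the helix by hydroxylating proline. *P4ha1*, a catalytic subunit, rose from 25.8 ± 1.43 to 36.7 ± 0.692 FPKM (log2 fold change 0.49, adjusted p = 3.96e-05 from limma), and *P4ha2* from 6.46 ± 0.453 to 11.4 ± 1.94 (0.72, adjusted p = 0.000547). Their abundant partner *P4hb*, also called protein disulfide isomerase, was slightly higher (0.11, adjusted p = 0.00726 from limma). Of the 3-hydroxylation genes, *P3h4* (1.15) and *P3h2* (0.94) rose, while *P3h1* (-0.07), *P3h3* (0.02) and the cyclophilin *Ppib* (0.10) did not pass. *Crtap*, the cofactor of P3H1, was lower (-0.25, adjusted p = 0.0248 from limma), with libraries that overlapped. Among lysyl hydroxylases, which prepare lysines for cross-links, *Plod2* rose from 1.54 ± 0.131 to 4.43 ± 0.437 FPKM (1.10, adjusted p = 3.51e-05 from limma). The more abundant *Plod1* fell from 144 ± 5.60 to 121 ± 5.44 FPKM (-0.25, adjusted p = 0.00104 from limma), and *Plod3* (0.10, adjusted p = 0.0493) and the galactosyltransferase *Colgalt1* (0.23, adjusted p = 0.000274) were slightly higher. The call of *Plod3* was close to the threshold.

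The collagen chaperone *Serpinh1*, known as HSP47, had 12.6, 9.97 and 12.3 FPKM in control and 43.8, 24.4 and 26.7 FPKM in CITED2-deficient libraries (log2 fold change 1.33, SE 0.19, limma adjusted p = 0.000363). The prolyl isomerase *Fkbp10* rose by 1.46 (adjusted p = 0.000389 from limma) and *Creb3l1*, a transcription factor of collagen-secreting cells, by 0.57 (adjusted p = 0.0188). For all 3 genes CITED2-deficient replicate 1 was the highest library. The export receptor *Mia3* (-0.04) and the isomerase *Fkbp14* (-0.05) did not pass, and *Mia2*, a partner of *Mia3*, was lower (-0.14, adjusted p = 0.00773 from limma). Genes for trimming of procollagen rose in all 3 tested members, namely *Pcolce* (1.22), *Adamts2* (1.23) and *Bmp1* (1.19), with adjusted p from 0.000129 to 0.000175 in limma. Of all tested genes, 16.7% were higher. *Tll1* and *Adamts3* were at or near 0 in every library.

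Cross-linking genes rose in all 4 tested members, against 16.7% of all tested genes. *Loxl2* was tested only through its CITED2-deficient libraries, with means of 0.723 FPKM in control and 3.29 FPKM in CITED2-deficient BMDMs. *Loxl4*, below the filter, had means of 0.301 and 0.917 FPKM and passed in limma without a filter (adjusted p = 0.0182). *Lox*, the lysyl oxidase that starts covalent cross-links in fibers, had 5.31, 5.23 and 5.84 FPKM in control and 39.7, 25.4 and 28.7 FPKM in CITED2-deficient libraries. Its groups were far apart, with a log2 fold change of 2.30 (SE 0.14, limma adjusted p = 1.38e-06). *Loxl1* (1.32), *Loxl2* (1.30) and *Loxl3* (0.72) also passed. *Loxl3* was already at 14.8 ± 0.899 FPKM in control BMDMs and reached 25.0 ± 0.473 FPKM.

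Collagen receptors and collagenases also changed in both directions. The macrophage mannose receptor *Mrc1*, which takes up collagen fragments, fell from 353 ± 4.09 to 104 ± 5.66 FPKM (log2 fold change -1.76, SE 0.04, limma adjusted p = 2.19e-09). Its relative *Mrc2*, the uptake receptor Endo180 of stromal cells and some macrophages, rose from 2.68 ± 0.0788 to 8.63 ± 1.78 FPKM (1.37, adjusted p = 2.50e-05 from limma). The inhibitory collagen receptor *Lair1* of leukocytes rose from 56.3 ± 1.44 to 116 ± 7.40 FPKM (1.03, adjusted p = 2.35e-07 from limma). The discoidin domain receptors *Ddr2* (1.10) and *Ddr1* (0.61) and the integrin subunit *Itgb1* (0.24) were higher as well. The collagen-binding integrin subunits *Itga1*, *Itga2*, *Itga10* and *Itga11* were below the filter. Of the collagen-degrading enzymes, *Mmp13*, a collagenase, had 4.49, 3.29 and 3.04 FPKM in control and 30.7, 35.4 and 34.3 FPKM in CITED2-deficient libraries (2.91, SE 0.11, limma adjusted p = 7.10e-08). Here CITED2-deficient replicate 1 was the lowest of its group, unlike for the chains that were higher past the threshold. *Mmp14* (1.67), *Mmp2* (1.48), *Mmp8* (0.70) and *Ctsk* (0.53), the collagen-cleaving cathepsin of osteoclasts, also rose. *Mmp9* was lower (-0.24, adjusted p = 0.0408 from limma), and *Ctsl* did not pass. When low genes were kept in the limma fit, the calls of *Ddr1* (adjusted p = 0.0545), *Creb3l1* (0.0696), *Plod3* (0.0747), *Crtap* (0.0765) and *Mmp9* (0.0998) were lost.

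**Figure D4:**
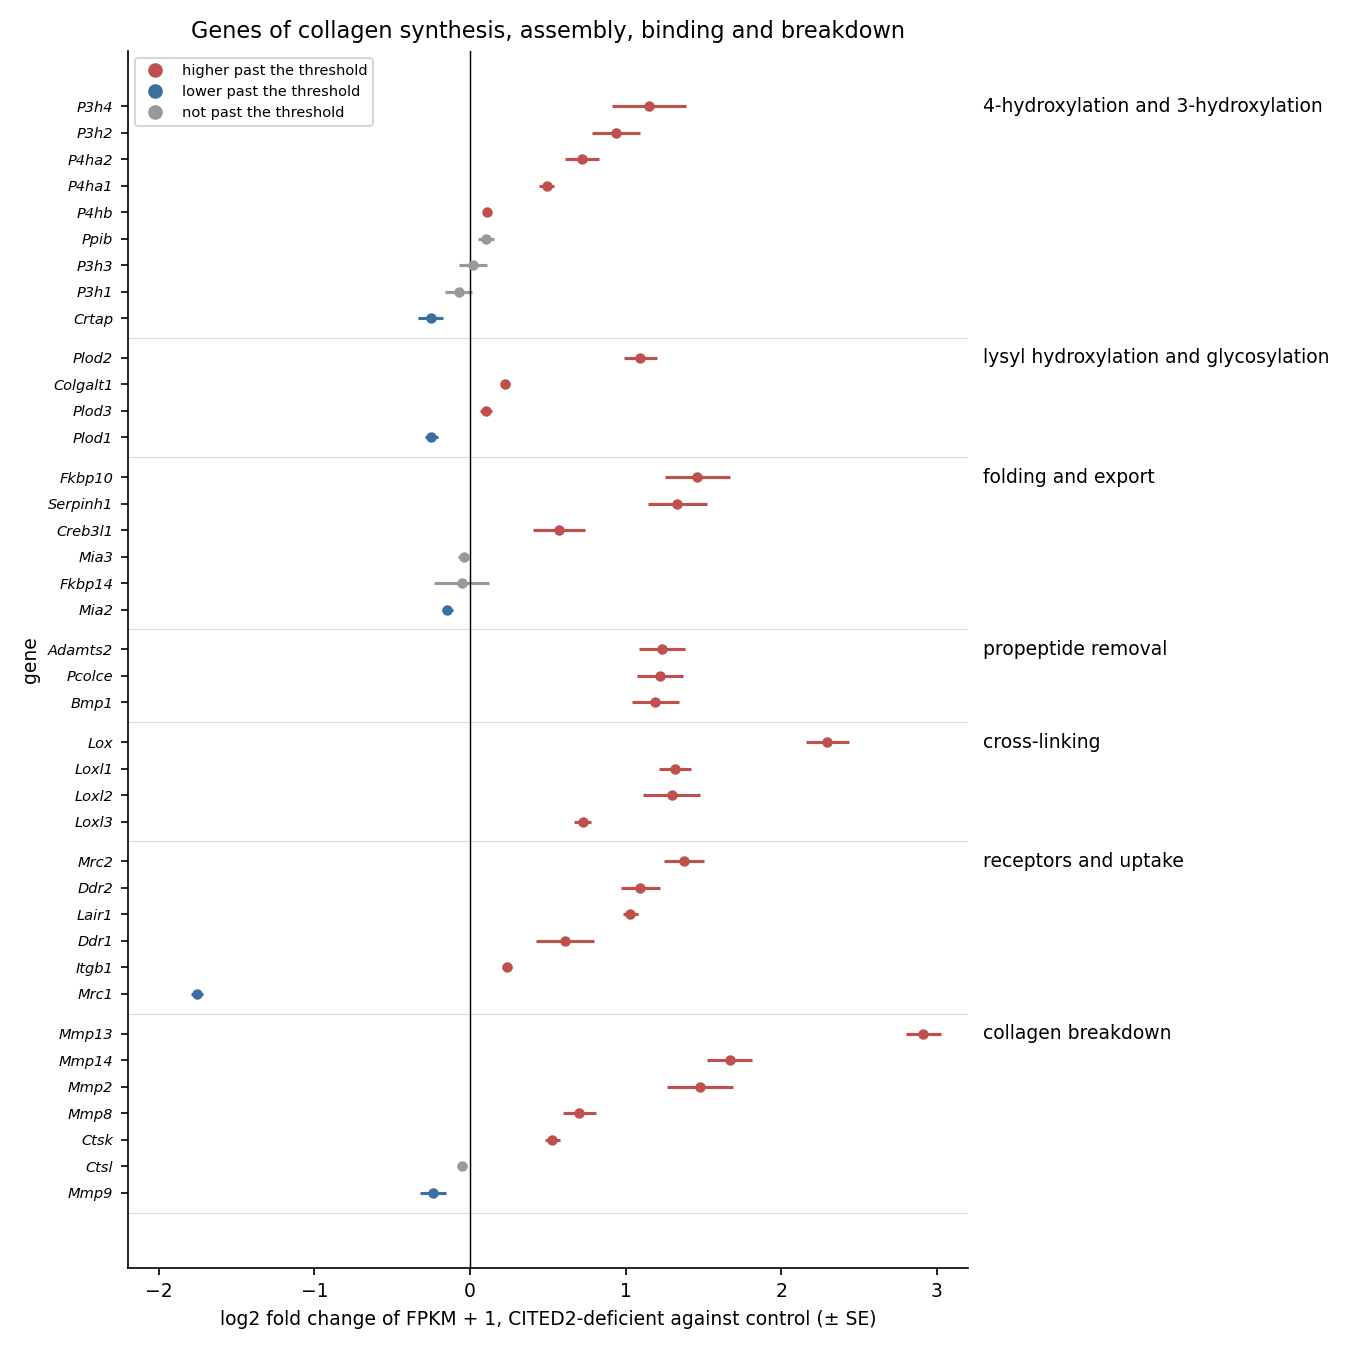
Log2 fold change of FPKM + 1 with standard error for the 39 tested genes of collagen synthesis, assembly, binding and breakdown, grouped by role; red marks genes higher and blue genes lower past the threshold in CITED2-deficient BMDMs, and gray the rest. All tested cross-linking and propeptide removal genes are higher, against 16.7% of all tested genes, and *Mrc1* has the lowest value, -1.76.

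Markers of other cell types were read beside the collagen chains, since the cultures started from bone marrow cells. In bulk RNA, more cells of a type and more RNA per cell cannot be told apart. Of 8 macrophage markers all were tested, 1 was higher, 5 were lower and 2 did not pass, against 16.7% higher and 34.6% lower of all tested genes. *Adgre1*, which encodes F4/80, had 2193 to 2234 FPKM in control and 1748 to 1815 FPKM in CITED2-deficient libraries, so all libraries carried the macrophage label. *Lyz2*, whose locus carries Cre, had 30.8, 30.6 and 32.5 FPKM in control and 9.39, 9.82 and 10.0 FPKM in CITED2-deficient libraries. Of 16 fibroblast or stromal markers, which hold no collagen chain, 9 were tested and all 9 were higher, against 16.7% of all tested genes, namely *Pdgfra* (log2 fold change 0.65), *Pdgfrb* (0.82), *Dcn* (0.78), *Mgp* (1.00), *Fbn1* (1.22), *Ogn* (1.55), *Cxcl12* (1.57), *Fbln2* (1.69) and *Postn* (1.53). The summed level of this list was 17.9 to 22.4 FPKM in control and 73.1, 50.4 and 52.1 FPKM in CITED2-deficient replicates 1 to 3. Without CITED2-deficient replicate 1, 8 of these markers were tested and 8 were higher, against 15.0% of all tested genes, *Postn* having fallen below the filter. The filter used the mean of both groups, so a low marker could pass it through its CITED2-deficient values. Limma without a filter called 10 of all 16 markers higher, against 9.90% of all genes. Limma-voom called 11 of them higher, against 14.0%, and neither called any lower. The other 7 markers were below the filter in the main test. *Lum*, *Dpt* and *Mfap5* were at or below 0.302 FPKM in every library, with lower means in CITED2-deficient BMDMs. The other 4 had higher means, from 0.471 to 1.21 FPKM for *Fbln1*, from 0 to 0.406 for *Fmod*, from 0.415 to 0.621 for *Thy1* and from 0.0737 to 0.205 for *Lepr*. The groups of *Fbln1* and *Fmod* did not overlap, and *Fbln1* passed in limma without a filter (adjusted p = 0.00663). Of 9 smooth muscle or pericyte markers, *Acta2* (1.63), *Myl9* (1.58) and *Mcam* (0.51) were tested and higher, against 16.7% of all tested genes, and the call of *Mcam* was lost in limma without a filter (adjusted p = 0.0633). *Tagln*, *Cnn1*, *Des*, *Rgs5*, *Cspg4* and *Myh11* were below the filter, and the summed level was 20.6 to 25.2 FPKM in control and 97.0, 56.0 and 65.4 FPKM in CITED2-deficient libraries. The part of these cells in the collagen rise was not tested.

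CITED2-deficient replicate 1 also stood apart in osteoblast genes. The summed level of 7 osteoblast markers was 3.25, 2.38 and 3.56 FPKM in control and 51.9, 7.57 and 6.79 FPKM in CITED2-deficient libraries. *Ibsp*, which encodes the bone sialoprotein, had 13.7 FPKM in CITED2-deficient replicate 1 and at most 0.0856 FPKM in the other 5 libraries. *Alpl*, the alkaline phosphatase of bone-forming cells, had 1.14, 0.876 and 1.33 FPKM in control and 31.6, 3.91 and 2.76 FPKM in CITED2-deficient libraries. The ratio of replicate 1 to replicates 2 and 3 thus was higher for *Ibsp* and *Alpl* than for any collagen chain that was tested. *Alpl* passed with 2.00 (adjusted p = 0.0322 from limma) and, without replicate 1, with 1.03 (adjusted p = 0.00144), but not in limma without a filter (adjusted p = 0.112) or in limma-voom (adjusted p = 0.0548). *Runx2* rose with and without that library (0.84 and 0.74), *Ibsp* did not pass, and *Sp7* had 1.45 FPKM in replicate 1 against 0.109 and 0.378 in replicates 2 and 3. The late osteoblast markers *Bglap*, *Bglap2* and *Dmp1* were at most 0.242 FPKM in any library. Whether bone-forming cells contributed to the type I collagen of replicate 1 was not tested.

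**Figure D5:**
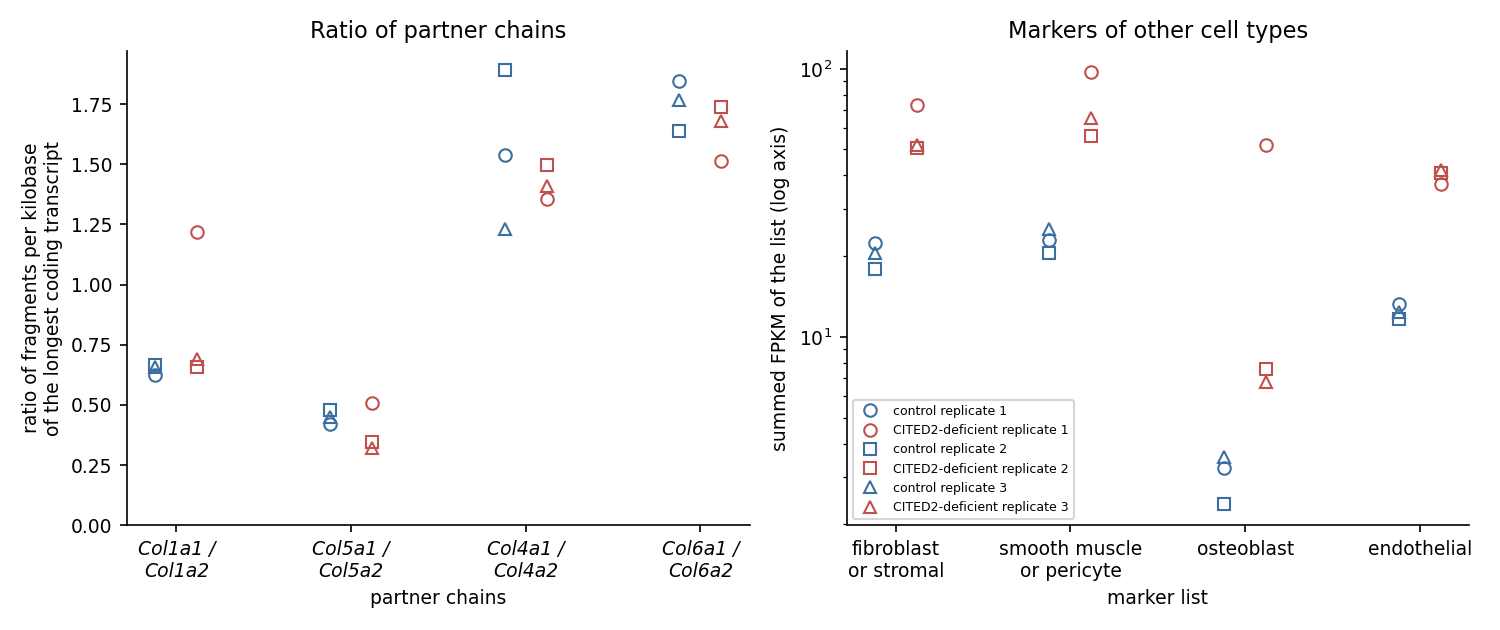
Left, ratio of partner chains (fragments per kilobase of the longest coding transcript) in each library; right, summed FPKM (log axis) of 4 marker lists in each library, with blue for control, red for CITED2-deficient and 1 symbol shape per replicate. CITED2-deficient replicate 1 stands apart in the *Col1a1* to *Col1a2* ratio, at 1.22, and in the osteoblast list, at 51.9 FPKM.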

How the data were processed

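RNA from 3 control and 3 CITED2-deficient BMDM libraries was analyzed. The authors removed ribosomal RNA, made stranded libraries, mapped reads to mm10 with STAR and deposited 1 FPKM per gene and library from Cuffdiff with the GENCODE annotation; software versions, the GENCODE release and any use of strand in counting were not given in the sources used here. Dividing out the mean transcript length of GENCODE vM21 gave fragment numbers within 0.02 of whole numbers in all libraries for 21374 of 22239 matched genes and 38 of 39 collagen chains (all but *Col11a2*, whose numbers are approximate). Replicates differed by more than counting noise (mean chi-square per gene of 2.21 to 5.50).

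In R 4.3.3, limma 3.58.1 (trended variance, Benjamini-Hochberg adjustment) was run on log2(FPKM + 1) for the genes averaging 1 FPKM or more; this scale understates changes of low genes. The fit was tested on simulated data. Alternatives were other pseudocounts, filters and scalings, an untrended variance, a block for the replicate number, array weights, omission of each library, an added fold threshold and limma-voom on the fragments.

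The chains and gene lists were chosen with earlier results of these data known. Chains with a mean FPKM of at least 1 are given with all libraries (the first 12 by mean) or group means, and pathway and marker genes when tested and past the threshold or near 0. All libraries are also shown for other genes singled out after their values were seen, such as *Col4a5*, *Col20a1*, *Col11a2* and *Ibsp*.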

Additional observations from a re-analysis of the deposited data

How the results depend on the processing

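The count of collagen chains past the threshold was 16, with 14 higher and 2 lower. It moved by over 1.5 times only with a filter at a mean FPKM of at least 5, which left 11 chains to test, 10 of them called and 0 lower. With a fold change of at least 2 also required, 0 chains were lower. Leaving out each library in turn gave 14 to 16 called chains, 13 to 14 higher and 1 to 2 lower. With CITED2-deficient replicate 1 omitted, 15.0% of all tested genes were higher and 31.7% lower. Shares of all tested genes were not computed for the other omissions or for the filter at a mean FPKM of at least 5. Nor were they computed for other pseudocounts, quantile normalization, the untrended variance or array weights. Pathway genes gave 33 calls, and 17 (16 higher, 1 lower) with the fold requirement, against 3.72% higher and 1.54% lower of all tested genes. Their higher calls were 17 at a mean FPKM of at least 5, where fewer genes were tested. Their 5 lower calls became 3 without a filter, with quantile normalization and without the variance trend, and 2 after median-ratio scaling; leaving out libraries gave 3 to 5, with *Mia2*, *Mrc1* and *Plod1* always among them. Without control replicate 1, control replicate 2 or CITED2-deficient replicate 3 they were 3. The fibroblast or stromal markers gave 9 calls, and 4 at a mean FPKM of at least 5, where 4 were tested. *Col18a1* turned positive after median-ratio scaling (0.034), quantile normalization (0.0023), without control replicate 3 (0.0089) and without CITED2-deficient replicate 2 (0.034), and was -0.11 without CITED2-deficient replicate 1; it never passed. *Cited2* ranged from -3.24 to -2.99.

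The labels do not say whether same-numbered libraries were paired. Deviations of same-numbered libraries had correlations of 0.014, 0.0078 and 0.040, against -0.052 to 0.035 for libraries with different numbers. These values cannot show how the libraries were prepared. The replicate block left the counts at 16 chains, 33 pathway genes and 9 fibroblast or stromal markers and *Cited2* at -3.09. The share of all tested genes called with this block was not computed. Median-ratio scaling moved the median of all tested genes from -0.10 to -0.0069. The split of all calls was then 23.1% of tested genes higher and 21.3% lower, and 14 chains were higher and 2 lower. Depth limits the 21 chains below the filter, for which 4 had under 10 fragments in all libraries together. The causes of these shifts were not tested.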

Other observations

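Lists of other cell types held further values that move with the genotype. Of 6 endothelial markers, 3 were tested and higher in CITED2-deficient BMDMs, against 16.7% of all tested genes. *Kdr*, which encodes VEGF receptor 2, had 3.99, 4.14 and 4.66 FPKM in control and 23.8, 29.0 and 29.6 FPKM in CITED2-deficient libraries (log2 fold change 2.43, SE 0.09, limma adjusted p = 6.22e-08). *Vwf* (0.52) and *Cdh5* (0.56) also passed, while *Emcn*, *Cldn5* and *Tek* were below the filter. CITED2-deficient replicate 1 was the lowest of its group for *Kdr*, in contrast to the collagen chains that were higher past the threshold.

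All 5 listed chondrocyte markers were below the filter. *Sox9*, a transcription factor of cartilage cells and other tissues, had means of 0.186 ± 0.0803 FPKM in control and 0.723 ± 0.138 FPKM in CITED2-deficient BMDMs with no overlap, and passed in limma without a filter (adjusted p = 0.00504) and in limma-voom (adjusted p = 0.000127). *Acan*, the main proteoglycan of cartilage, was at most 0.00791 FPKM, and *Comp*, *Matn1* and *Cnmd* had lower means in CITED2-deficient BMDMs. Adipocyte markers separated the control libraries. *Adipoq* had 1.73 and 2.28 FPKM in control replicates 1 and 2 and 0 in control replicate 3, and *Cfd* had 3.96, 6.46 and 0.118 FPKM in the controls, against at most 0.0837 and 0.0494 FPKM in CITED2-deficient libraries. *Cfd* was lower past the threshold (-1.75, adjusted p = 0.0306 from limma), a call that was lost without CITED2-deficient replicate 1 (adjusted p = 0.0593), in limma without a filter (adjusted p = 0.103) and in limma-voom (adjusted p = 0.0818). The collagen sum of control replicate 3, 105 FPKM, lay between those of the other control libraries.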
